A study of Mus musculus with 5 samples.

Results

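The 5 core thermogenic effector genes *Ucp1*, *Dio2*, *Cidea*, *Elovl3* and *Ppargc1a* were examined by gene and by transcript in RNA-seq of brown adipose tissue (BAT) from cold-exposed mice. They were chosen by name for their roles in heat production, and each was matched by symbol to 1 gene of the 52022 found in the data. Together they have 10 annotated transcripts. The tissue came from 3 ATF4 BKO mice and 2 WT mice, 1 library per mouse, with the labels placing it in interscapular BAT. ATF4 BKO mice carried ATF4 fl/fl alleles and the transgene Tg(Ucp1-cre)1Evdr, which expresses Cre recombinase from the *Ucp1* promoter in thermogenic adipocytes, so other cells of the tissue keep *Atf4*. The WT controls were littermates with the floxed alleles and no Cre, so loss of *Atf4* and presence of the *Ucp1*-driven transgene cannot be told apart. All mice were described as males on a C57Bl/6J background, 10 to 12 weeks old and fed ad libitum. They were kept at 30 °C for 7 days and then at 4 °C for 3 days, and no library from 30 °C was analysed here, so the comparison is between genotypes in the cold and does not measure the response to cold.

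Brown adipocytes burn fuel to make heat. Noradrenaline released in the cold acts on β-adrenergic receptors, cyclic AMP rises, and protein kinase A both releases fatty acids from lipid droplets and raises transcription of a set of thermogenic genes. *Ucp1* encodes the uncoupling protein that lets protons back across the inner mitochondrial membrane without making ATP. *Ppargc1a* encodes the coactivator PGC-1α, which drives mitochondrial biogenesis and *Ucp1* transcription, *Dio2* encodes the deiodinase that makes active thyroid hormone within the cell, *Cidea* encodes a lipid droplet protein, and *Elovl3* encodes an elongase of very long chain fatty acids.

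Library totals ran from 24698337 to 32452751 estimated counts. The 10 genes listed as brown adipocyte markers summed to between 16760 and 20920 TPM (a level corrected for transcript length and library size). None was under 1 TPM in any library. *Fabp4* alone gave 10100 to 12810 TPM of the sum, and *Adrb3* was at 26.8 TPM in WT replicate 1 and 126.6 TPM in WT replicate 2. *Atf4*, the deleted gene, was at 22.1, 40.5 and 16.4 TPM in ATF4 BKO replicates 1, 2 and 3 and at 226.6 and 188.3 TPM in WT replicates 1 and 2. Its log2 fold change, ATF4 BKO over WT, was -2.82, with an adjusted p of 0.671 by the edgeR quasi-likelihood test and of 9.7e-12 by DESeq2. The 20 skeletal muscle markers summed to 77.9, 78.6 and 81.6 TPM in ATF4 BKO mice and to 166.6 and 2434 TPM in WT mice, so WT replicate 2 stands apart by this sum. *Myl1* alone gave 60.0, 42.0 and 68.5 TPM in ATF4 BKO replicates 1 to 3 and 63.0 and 179.3 TPM in WT replicates 1 and 2. In most of these markers WT replicate 1 was also above the ATF4 BKO mice, as given below. ATF4 BKO replicate 1 held 4598 counts of *Xist*, an RNA of female cells, against at most 7 in the others, which goes against its label. Values without WT replicate 2 and without ATF4 BKO replicate 1 are given where they bear on a result.

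None of the 5 genes differed between genotypes beyond the spread among mice. At an adjusted p under 0.05, 0 of 5 were called by edgeR, where 0.00608% of the 16450 genes tested were called, and 0 of 5 by DESeq2, where 0.736% were. At an unadjusted p under 0.05, 0 of 5 passed, against 5.23% of all genes. CPM here means counts corrected for library size and, by TMM scaling, for RNA composition, with no correction for transcript length. By CPM, no member had every ATF4 BKO library above both WT libraries, as 8.95% of genes did. None had every one below, as 10.6% did. A p above the threshold does not show equal levels, and the intervals below give the differences these 5 libraries leave possible. *Atf4* itself, at a log2 fold change of -2.82, missed the edgeR threshold.

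The genes differed widely from one another in level. In every library *Ucp1* had the highest TPM, followed by *Cidea*, *Elovl3*, *Dio2* and *Ppargc1a* in that order. The 5 together made up 1.18, 1.03 and 1.18% of all TPM in ATF4 BKO replicates 1 to 3 and 1.07 and 1.28% in WT replicates 1 and 2. Across libraries the TPM ranges of *Ucp1*, *Cidea*, *Elovl3* and *Dio2* did not touch one another, while the highest *Ppargc1a* value, 45.5 TPM in ATF4 BKO replicate 2, was above the lowest *Dio2* value, 42.5 TPM in WT replicate 1.

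**Figure D1:**
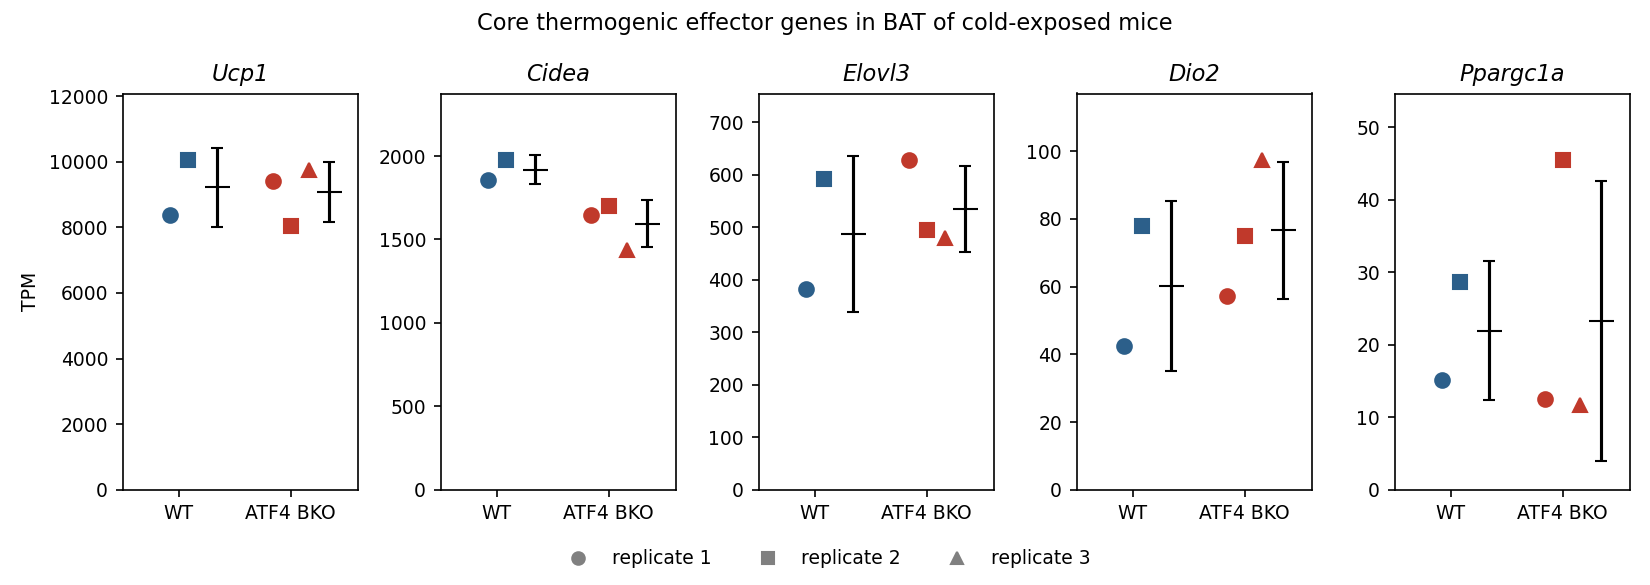
TPM (vertical axes, linear from 0, one scale per gene) of the 5 genes in 2 WT and 3 ATF4 BKO libraries, 1 point per mouse, with bars for the mean ± SD of each genotype. The genotypes interleave for *Ucp1*, *Elovl3*, *Dio2* and *Ppargc1a*, and for *Cidea* the ATF4 BKO points lie below both WT points on this scale.

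*Ucp1* (ENSMUSG00000031710.4, chromosome 8 from 83290352 to 83298452 in GRCm38, plus strand) was among the most abundant RNAs of the tissue. It ranked between 13 and 15 among all genes by TPM. It was at 9427, 8039 and 9754 TPM in ATF4 BKO replicates 1 to 3 and at 8372 and 10070 TPM in WT replicates 1 and 2. ATF4 BKO replicate 2 was the lowest library and WT replicate 2 the highest, and the genotypes overlapped. Means were 9073 ± 911 TPM (SD, n = 3) and 9222 ± 1202 TPM (SD, n = 2). On the CPM scale the values were 13060, 9762 and 13080 against 9916 and 11380. The edgeR log2 fold change was 0.17 (SE 0.24, adjusted p = 0.953), a 1.12-fold difference with a 95% interval from 0.752-fold to 1.68-fold. The 2 scales pointed opposite ways, since the difference in mean log2 TPM was -0.02, where the median over all genes tested also fell, to -0.12 on log2(TPM + 1), against 0.01 in the edgeR fit. RNAs encoded by the mitochondrial genome took 35.1, 29.2 and 32.1% of TPM in ATF4 BKO mice, against 23.7 and 24.7% in WT mice. With those RNAs left out of the denominator, *Ucp1* made up 1.47, 1.15 and 1.46% of TPM in ATF4 BKO mice, against 1.11 and 1.36% in WT mice, and the genotypes still overlapped. Whether any *Ucp1* counts came from sequence carried by the *Ucp1*-driven transgene, present in ATF4 BKO mice alone, was not tested.

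The 250 bases upstream of the *Ucp1* start, from RefSeq (GRCm38.p6), are shown because cyclic AMP signaling acts on this gene through elements built on the letters TGACG. Promoter windows were found for 3 of the 5 genes, those of *Ucp1*, *Dio2* and *Ppargc1a*, and were searched on both strands for the full cyclic AMP response element TGACGTCA, for its core TGACG, and for the C/EBP-ATF composite element TGATGNAAT, which ATF4 binds with a C/EBP partner. Among all 32851 such windows, 1.55% held TGACGTCA, 17.8% held TGACG, which the full element contains, and 0.816% held TGATGNAAT. The *Ucp1* window at chr8:83290098-83290347, plus strand, holds 1 core, in capitals, from 147 to 143 bases before the start.
*Ucp1*: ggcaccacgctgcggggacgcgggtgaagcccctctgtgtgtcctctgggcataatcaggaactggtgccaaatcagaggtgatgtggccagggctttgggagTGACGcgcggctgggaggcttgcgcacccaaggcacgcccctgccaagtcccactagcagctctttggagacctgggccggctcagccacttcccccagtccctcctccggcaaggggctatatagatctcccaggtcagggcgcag
None of the 3 windows holds TGATGNAAT, which speaks only of these letters in these windows.

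*Dio2* (ENSMUSG00000007682.6, chromosome 12 from 90724552 to 90738438, minus strand) had the highest fitted fold change of the 5 and a wide spread within each genotype. It was at 57.3, 75.0 and 97.6 TPM in ATF4 BKO replicates 1 to 3 and at 42.5 and 77.9 TPM in WT replicates 1 and 2. WT replicate 1 was the lowest library and ATF4 BKO replicate 3 the highest, and WT replicate 2 lay among the ATF4 BKO mice. The means were 76.6 ± 20.2 TPM (SD, n = 3) and 60.2 ± 25.1 TPM (SD, n = 2). By edgeR the log2 fold change was 0.54 (SE 0.32, adjusted p = 0.920), which is 1.45-fold with a 95% interval from 0.846-fold to 2.49-fold. It was above 0 under all 15 other settings tried, of test, scaling, filter, block and libraries, and between 0.20 and 0.98 when each library was left out, the highest without WT replicate 2. Nearly all of its 31-base words are its own, with 1.21% shared, mainly with *Gm26512* on the opposite strand, which held at most 17.0 counts.

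The RefSeq window of *Dio2*, at chr12:90739039-90739288 on the minus strand, holds the full cyclic AMP response element, from 95 to 88 bases before the RefSeq start and in capitals here. The GENCODE start of the transcript counted, at 90738438, lies downstream of the RefSeq start at 90739038.
*Dio2*: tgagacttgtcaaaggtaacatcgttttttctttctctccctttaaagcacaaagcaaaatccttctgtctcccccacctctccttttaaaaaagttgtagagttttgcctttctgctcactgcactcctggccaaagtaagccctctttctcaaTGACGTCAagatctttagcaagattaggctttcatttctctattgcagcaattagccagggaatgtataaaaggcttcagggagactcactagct
This is the sole window of the 3 with the full element, which 508 of the 32851 windows hold.

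*Cidea* (ENSMUSG00000024526.9, chromosome 18 from 67343604 to 67367785, plus strand) varied least of the 5 by CPM, where its highest value was 1.18 times its lowest. By TPM *Ucp1* varied least, at 1.25 times, against 1.38 times for *Cidea*. It was at 1647, 1700 and 1437 TPM in ATF4 BKO replicates 1 to 3 and at 1856 and 1979 TPM in WT replicates 1 and 2, so on this scale every ATF4 BKO library was below both WT libraries. The same held for 24.9% of all genes tested. The difference in mean log2 TPM, -0.27, had an exact two-sided permutation p of 0.2. With 10 splits of 5 libraries that is the smallest p this two-sided test can give, and *Atf4* had it too. On the CPM scale the values were 1454, 1316 and 1228 against 1401 and 1425, and ATF4 BKO replicate 1 was the highest of all. The edgeR log2 fold change of -0.08 (SE 0.16, adjusted p = 0.969) had a 95% interval from 0.721-fold to 1.23-fold. Among the 5 genes this was the narrowest interval. Its partner on the opposite strand, *B430212C06Rik*, held 387 to 546 counts, against 32932 to 48314 for *Cidea*.

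*Elovl3* (ENSMUSG00000038754.5, chromosome 19 from 46131897 to 46135694, plus strand) was at 628.7, 494.5 and 479.9 TPM in ATF4 BKO replicates 1 to 3 and at 381.5 and 591.9 TPM in WT replicates 1 and 2. ATF4 BKO replicate 1 was the highest and WT replicate 1 the lowest, with the other 3 between them and mixed by genotype. Its log2 fold change by edgeR was 0.33 (SE 0.25, adjusted p = 0.930), or 1.26-fold with a 95% interval from 0.823-fold to 1.93-fold. Its transcripts, Elovl3-201 and Elovl3-202, both coding, use the same start and differ in the ends of the first and last exons. Elovl3-201 took 59.4, 60.0 and 57.7% of the gene's TPM in ATF4 BKO replicates 1 to 3 and 58.6 and 61.2% in WT replicates 1 and 2, so the split was nearly even across mice. The fitted log2 fold changes of the 2 transcripts were 0.30 and 0.36.

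*Ppargc1a* (ENSMUSG00000029167.13, chromosome 5 from 51454250 to 51567726, minus strand) was the least abundant of the 5 and the most variable. It was at 12.5, 45.5 and 11.7 TPM in ATF4 BKO replicates 1 to 3 and at 15.1 and 28.7 TPM in WT replicates 1 and 2. By CPM the values were 67.6, 180.8 and 61.4 against 51.4 and 110.9. ATF4 BKO replicate 2 was the highest library and WT replicate 2 the next on both scales, while both other ATF4 BKO libraries were below WT replicate 1 by TPM and above it by CPM. The 2 WT mice themselves differed by 1.11 in log2 CPM. Means were 23.2 ± 19.3 TPM (SD, n = 3) and 21.9 ± 9.58 TPM (SD, n = 2). The edgeR log2 fold change was 0.35 (SE 0.57, adjusted p = 0.963), with a 95% interval from 0.489-fold to 3.31-fold, the widest of the 5. The direction rested on single libraries. Without ATF4 BKO replicate 2 the log2 fold change was -0.31, without WT replicate 1 it was -0.10, and without WT replicate 2 it was 0.98. The 10 macrophage markers summed to 728.6, 1397 and 459.4 TPM in ATF4 BKO mice and to 215.9 and 1244 TPM in WT mice, all 10 with a fitted log2 fold change above 0 and none called, and the 2 libraries highest by this sum, ATF4 BKO replicate 2 and WT replicate 2, were also the 2 highest in *Ppargc1a*. The order of the other 3 matched by CPM and not by TPM. Its part in the result was not tested.

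The *Ppargc1a* locus has an upstream start and a downstream start, and the RefSeq window lies at the upstream one, at chr5:51567726-51567975 on the minus strand. It holds 1 core on the reverse strand, in capitals, from 49 to 45 bases before the start.
*Ppargc1a*: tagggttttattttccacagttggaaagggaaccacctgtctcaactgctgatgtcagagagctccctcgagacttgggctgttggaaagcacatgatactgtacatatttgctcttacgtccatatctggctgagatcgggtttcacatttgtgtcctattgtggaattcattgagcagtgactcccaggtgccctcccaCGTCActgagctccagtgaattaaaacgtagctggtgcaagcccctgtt
The transcripts annotated from this start were assigned few counts. They are Ppargc1a-202, just 488 bases long, and Ppargc1a-204, listed as a target of nonsense-mediated decay. No full-length coding transcript from this start is annotated, so these counts do not measure use of the upstream start. Ppargc1a-202, which starts at 51567726, had 14.0 counts in WT replicate 1, which at its short effective length of 289 bases is 1.86 TPM or 12.3% of the gene's TPM there, and 0 elsewhere, and Ppargc1a-204, which starts at 51567704, had 0 in all 5 libraries. By counting error alone, a count of 0 allows up to 3 counts, which leaves out how shared reads are assigned. Of the 2422 sequence words of Ppargc1a-204, 0 are absent from all other transcripts of the gene. For Ppargc1a-202 the number is 22 of 458. Reads from either could thus be assigned to other transcripts of the gene, so these counts of 0 do not bound their levels. Ppargc1a-203 and Ppargc1a-201 start within the downstream region, at 51553922 and 51553871, as does Ppargc1a-205, at 51553891. The last took 5.29% of the gene's TPM in WT replicate 1, with 1.77% the most elsewhere.

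Ppargc1a-203 encodes the full coactivator, and Ppargc1a-201 carries 31 extra bases at the start of exon 7. An alternative splice acceptor at this junction is known to give NT-PGC-1α, a truncated form that keeps the activation domain and is made in cold-exposed brown fat. Exon 6 (51490200 to 51490245) is the same in both, and exon 7 runs from 51490090 down to 51490017 in Ppargc1a-203 and from 51490121 down to 51490017 in Ppargc1a-201. The 77 bases from the start of exon 6 are shown for each from GENCODE M21, with the extra bases in capitals, because they set the reading frame.
Ppargc1a-203: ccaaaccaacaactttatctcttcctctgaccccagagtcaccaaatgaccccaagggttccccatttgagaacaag
Ppargc1a-201: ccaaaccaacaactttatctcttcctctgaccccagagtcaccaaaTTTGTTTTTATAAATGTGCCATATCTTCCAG
The reading frame ran for 797 codons before its stop in Ppargc1a-203 and for 270 in Ppargc1a-201, where the stop begins 10 bases into exon 7. GENCODE lists Ppargc1a-201 as a target of nonsense-mediated decay.

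Ppargc1a-203 was at 10.1, 24.8 and 9.52 TPM in ATF4 BKO replicates 1 to 3 and at 7.11 and 17.4 TPM in WT replicates 1 and 2. Ppargc1a-201 was at 2.33, 19.9 and 2.17 TPM in the ATF4 BKO mice and at 5.38 and 10.9 TPM in the WT mice. Ppargc1a-201 thus took 18.7, 43.8 and 18.6% of *Ppargc1a* TPM in ATF4 BKO replicates 1 to 3 and 35.5 and 37.9% in WT replicates 1 and 2. ATF4 BKO replicates 1 and 3 had the lowest shares and ATF4 BKO replicate 2 the highest, with both WT mice between. The log2 fold changes were 0.42 (SE 0.53) for Ppargc1a-203 and 0.10 (SE 1.04) for Ppargc1a-201, both with an edgeR adjusted p of 0.9997. Without ATF4 BKO replicate 2 they were -0.06 and -1.59, the latter with an adjusted p of 0.665. Just 60 of the 3011 words of 31 bases in Ppargc1a-201 are absent from Ppargc1a-203, against 3472 of 6423 in the other direction. Of the 3011, 0 are absent from all other transcripts of the gene, and Ppargc1a-204 has the same exon 7. No word thus identifies Ppargc1a-201 alone. The last exon is 631 bases long in Ppargc1a-201 and 4034 in Ppargc1a-203, so the 2 differ there as well as at exon 7. Most words that set them apart thus belong to Ppargc1a-203. Each share is that of an annotated transcript and not of the 31 extra bases alone, and no error is available for it. Of the 8 member transcripts tested, 0 were called, as were 0.0% of the 44452 transcripts, and 0 had an unadjusted p under 0.05, against 4.29% of all.

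The paralogs of the 5 genes give a comparison within each protein family. Of 16 listed, 13 were tested. The edgeR adjusted p was at least 0.671 for all 13, 1 of 13 had an unadjusted p under 0.05, and the median log2 fold change was 0.12, against 0.01 over all genes. That gene was *Cideb*, a relative of *Cidea* best known in liver lipoprotein secretion, at 2.99, 3.31 and 2.35 TPM in ATF4 BKO mice and 10.3 and 8.06 TPM in WT mice. Each ATF4 BKO library was below both WT libraries. Its log2 fold change was -1.50 (SE 0.25), called by DESeq2 (adjusted p = 8.3e-04) and not by edgeR (adjusted p = 0.671), and it was between -1.71 and -1.26 when each library was left out. *Cidec*, the third of the family, which enlarges lipid droplets, was at 596.3 to 750.5 TPM in ATF4 BKO mice and 637.5 and 805.3 TPM in WT mice, with a log2 fold change of 0.12.

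Uncoupling protein relatives were far below *Ucp1*. *Ucp2*, common in immune cells, averaged 160.7 ± 79.0 TPM (SD, n = 3) in ATF4 BKO mice and 139.6 ± 34.3 TPM (SD, n = 2) in WT mice (log2 fold change 0.29). *Ucp3*, common in muscle, was at 53.1 to 75.8 against 77.4 and 75.6 TPM (0.02). The carriers *Slc25a14* and *Slc25a27* were each under 3 TPM in every library, with log2 fold changes of -0.38 and 0.69. Of the other deiodinases, *Dio1* had no count and *Dio3* reached 0.067 TPM, so *Dio2* was the only deiodinase above 1 TPM in any of the 5 libraries. Among the elongases, *Elovl6*, which extends palmitate, was nearest to *Elovl3* in level at 96.5 to 270.8 TPM over the 5 libraries (0.74, SE 0.49). *Elovl5* (0.27), *Elovl1* (0.19) and *Elovl4* (0.36) were lower in level. The PGC-1 family members *Ppargc1b* and *Pprc1* had log2 fold changes of 0.10 and -0.48.

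**Figure D2:**
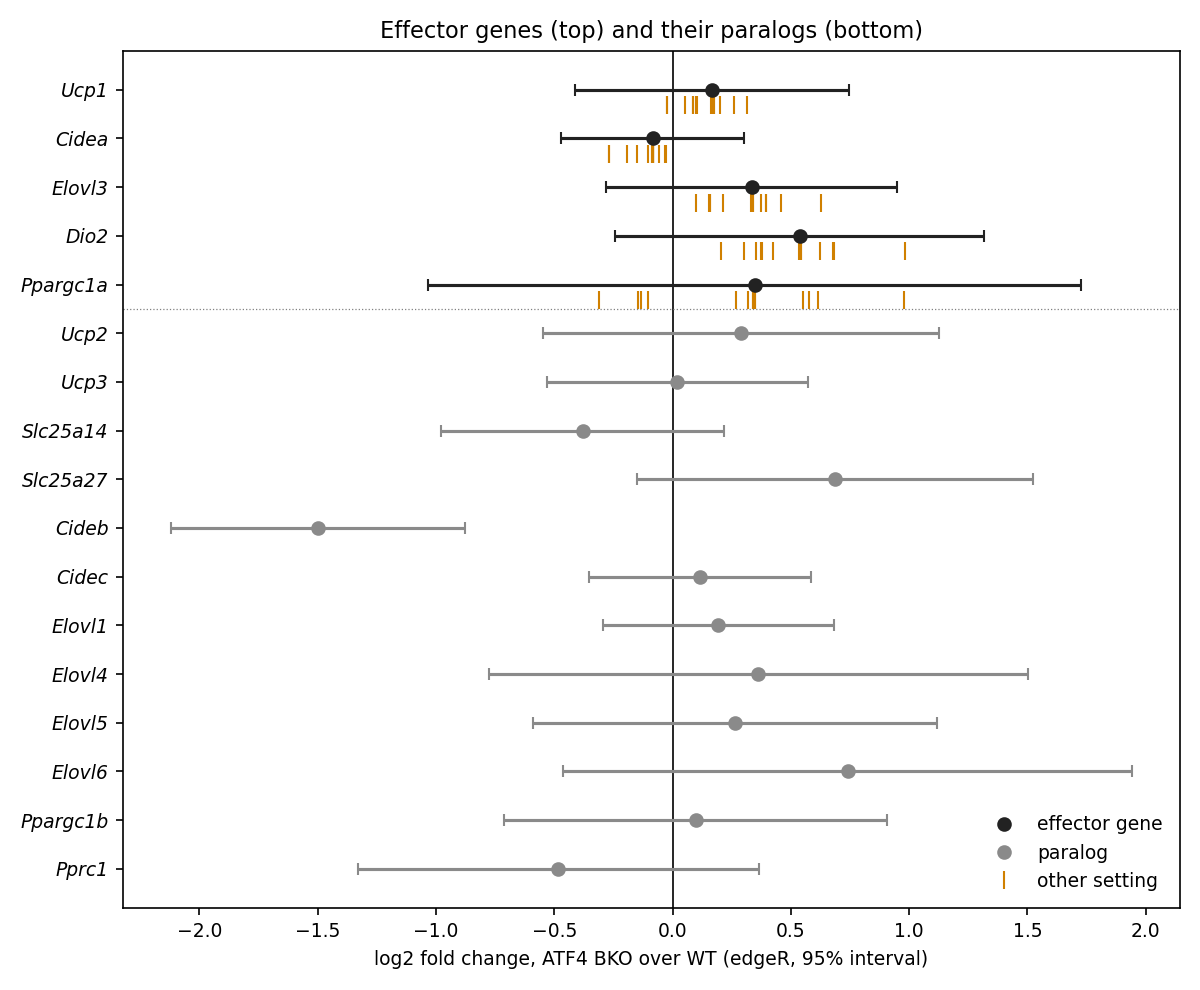
Log2 fold change, ATF4 BKO over WT, from edgeR with its 95% interval for the 5 genes (black) and their paralogs of at least 1 TPM (gray), with ticks under each of the 5 for the 15 other settings. All 5 black intervals include 0, the ticks of *Ucp1* and *Ppargc1a* fall on both sides of 0, and *Cideb* stands at -1.50.

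The rest of the thermogenic pathway was taken as lists, of which no gene was called by edgeR. Of 24 adrenergic and cyclic AMP signaling genes, 0 were called and 1 had an unadjusted p under 0.05, with a median log2 fold change of 0.07. That gene was *Prkar2b*, a protein kinase A regulatory subunit abundant in fat (-0.35, SE 0.14), with 280.5, 308.3 and 286.4 TPM in ATF4 BKO mice and 432.5 and 431.1 TPM in WT mice. The next by p were *Adcy4* (0.40), *Map2k3* (-0.46) and *Pde4d* (0.50). Of 27 transcription regulators of the program, 2 had an unadjusted p under 0.05, and the median was -0.03. *Irf4*, a partner of PGC-1α at *Ucp1*, was at 4.33, 11.6 and 3.35 TPM in ATF4 BKO mice and at 1.30 and 2.48 TPM in WT mice (log2 fold change 1.81, SE 0.60, adjusted p = 0.910), and like *Ppargc1a* it was highest in ATF4 BKO replicate 2. The other, *Nr4a3* (1.07), averaged under 1 TPM and was named after its values were seen. The nuclear receptors *Esrrg* (-0.34), *Ppara* (-0.62) and *Nr1h3* (0.27) followed by p.

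Of 12 genes of the thyroid hormone axis, 0 had an unadjusted p under 0.05, and the median log2 fold change was 0.07. The lowest p values belonged to the transporter *Slc16a10* (-0.27), the hormone-responsive factor *Klf9* (0.39), the E3 subunit *Wsb1* (0.27) and the deubiquitinase *Usp20* (0.16), of which the last pair act on the stability of the *Dio2* protein. Of 25 other thermogenic adipocyte markers, 1 had an unadjusted p under 0.05, and the median was 0.05. It was *Aspg* (0.78, SE 0.20, adjusted p = 0.771), ahead of *Slc27a2* (0.38), *Bmp8b* (-0.70) and *Pank1* (0.33). Of 17 lipolysis and lipid droplet genes, 0 passed the unadjusted threshold, and the median was 0.17. They were led by the triglyceride synthase *Dgat1* (0.30), *Gpihbp1* (0.51), the lipase gene *Pnpla2* (0.38) and *Angptl4* (0.54).

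**Figure D3:**
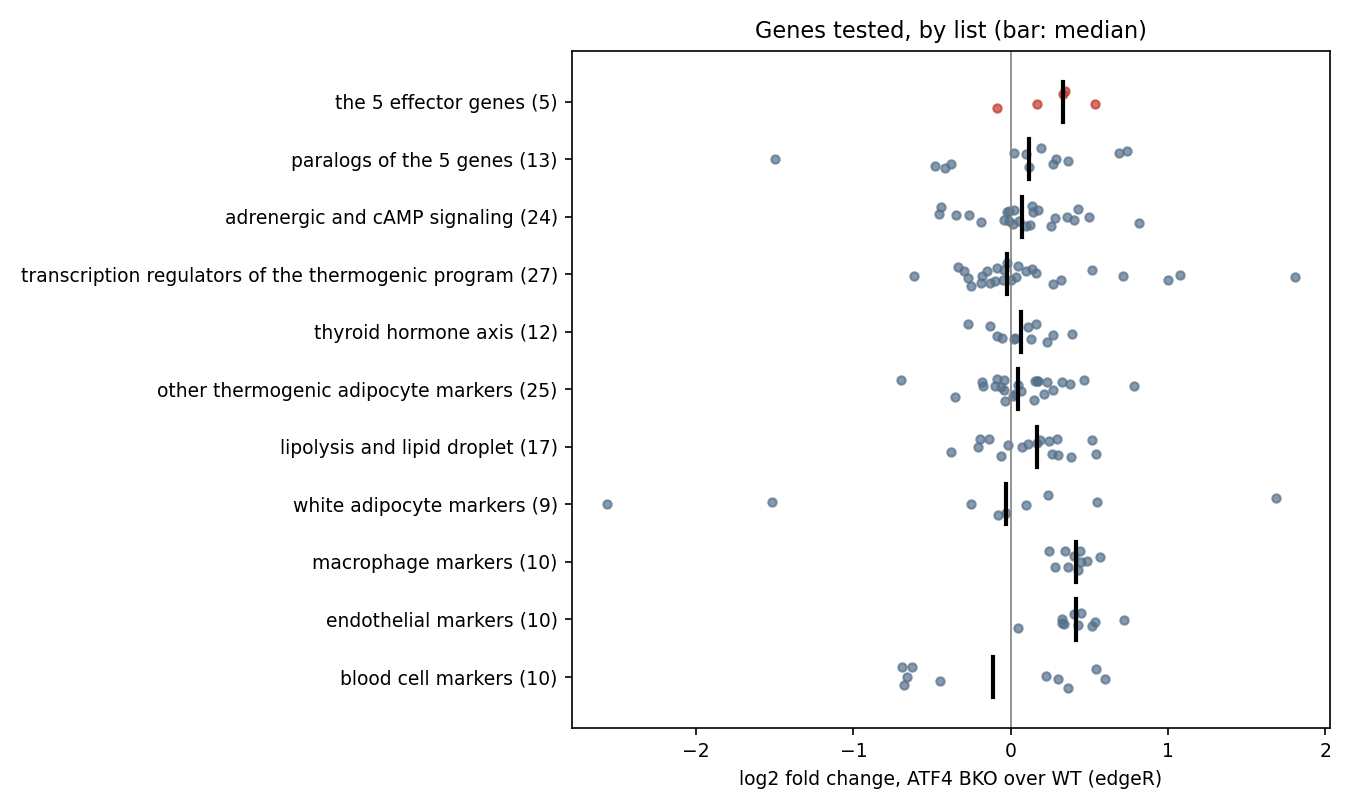
Log2 fold change, ATF4 BKO over WT, of each gene tested (points) with the median of each list (bar) and the number tested in parentheses. The 5 effector genes lie between -0.08 and 0.54, within the range of the surrounding lists, and the skeletal muscle markers, whose median is -6.28, are not drawn.

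Markers of other cell types were given beside these values because the tissue is a mixture, in which fewer cells of a type and less RNA per cell cannot be told apart. All 20 skeletal muscle markers had negative log2 fold changes and 19 had an unadjusted p under 0.05, led by *Myh1*, *Myh2*, *Tcap* and *Mylpf*. Endothelial markers had a median of 0.42, with 10 of 10 above 0 and 3 of 10 under the unadjusted threshold (*Tek*, *Flt1* and *Pecam1*), and summed to 406.1, 501.4 and 530.5 TPM against 378.5 and 477.7 TPM. Blood cell markers had a median of -0.12. White adipocyte markers had a median of -0.03, with 4 of 9 above 0 and none called. Those with an unadjusted p under 0.05 were *Adipoq* (log2 fold change 0.55), *Lep* (-2.57) and *Nnat* (-1.52). *Adipoq*, at 295 to 465.8 TPM in this BAT, is not particular to white adipocytes. The part of these cells in the values of the 5 genes was not tested. By CPM, 19 of the 20 muscle markers had every ATF4 BKO library below both WT libraries, as 10.6% of all genes did. Leaving out WT replicate 2, the library highest in muscle markers, thus does not remove this difference. Without WT replicate 2 the log2 fold changes were 0.26 for *Ucp1*, 0.98 for *Dio2*, -0.09 for *Cidea*, 0.63 for *Elovl3* and 0.98 for *Ppargc1a*. Without ATF4 BKO replicate 1, whose *Xist* level goes against its label, they were 0.10, 0.68, -0.15, 0.15 and 0.58 in the same order.

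The 5 genes differed in how far they spread among mice. The range of log2 CPM over the 5 libraries was 0.24 for *Cidea*, 0.42 for *Ucp1*, 0.94 for *Elovl3*, 1.38 for *Dio2* and 1.81 for *Ppargc1a*. Over the 8643 genes averaging at least 10 CPM the median range was 0.46, and the share of those genes with a smaller range was 13.8% for *Cidea*, 44.0% for *Ucp1*, 85.8% for *Elovl3*, 94.0% for *Dio2* and 97.0% for *Ppargc1a*. *Cidea* and *Ucp1* were thus under the typical range, and *Dio2* and *Ppargc1a* were near the top.

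The sample names carry 2 prefixes, whose meaning the labels do not give, with ATF4 BKO replicates 1 and 2 and WT replicate 1 under the first and the other 2 libraries under the second. Within the first prefix the log2 fold changes were 0.24 for *Ucp1*, 0.79 for *Dio2*, 0.02 for *Cidea*, 0.74 for *Elovl3* and 1.29 for *Ppargc1a*, with edgeR adjusted p of at least 0.470 and 1 WT library. Between the second pair of libraries the log2 CPM ratios were 0.20, 0.57, -0.21, -0.05 and -0.85 in the same order, with no test. *Ucp1* and *Dio2* kept one direction in both, and *Cidea*, *Elovl3* and *Ppargc1a* did not.

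The 5 genes did not move as a unit across mice. Likeness was measured as the root mean square difference between profiles of log2 CPM, each with its mean over the 5 libraries subtracted. Between members it was lowest for *Ucp1* and *Elovl3* at 0.20 and for *Ucp1* and *Cidea* at 0.21, and it was between 0.67 and 0.76 for *Ppargc1a* with each of the other 4. Among 6630 genes averaging at least 10 TPM, 609 lay within 0.1 of *Cidea*, 245 of *Ucp1*, 8 of *Elovl3*, 1 of *Dio2* and 0 of *Ppargc1a*, so the flat profiles of the first pair were shared by many genes.

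The nearest genes were *Rbl2*, *Furin* and *Wrap53* for *Ucp1* and *Pigt*, *Tardbp* and *Alg9* for *Cidea*, at distances of at most 0.03. For *Elovl3* they were *Mob1b*, *Myl12b* (ENSMUSG00000034868.9) and *Eid1*, at 0.07 to 0.08. *Enpp2*, *Fam117a* and *Rftn1* were nearest to *Dio2*, at 0.09 to 0.12. For *Ppargc1a* they were *Gm15441*, *Txnip* and *Cd300ld3*, at 0.13 to 0.14. *Txnip*, which encodes the thioredoxin-interacting protein, was at 353.8, 1069 and 387.2 TPM in ATF4 BKO replicates 1 to 3 and at 293.5 and 582.5 TPM in WT replicates 1 and 2, with the same library highest as for *Ppargc1a*. *Cd300ld3*, which encodes a receptor of myeloid cells, was at 7.31, 20.6 and 5.58 against 4.83 and 13.1 TPM. Over 5 libraries such likeness is a description and no test was made.

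**Figure D4:**
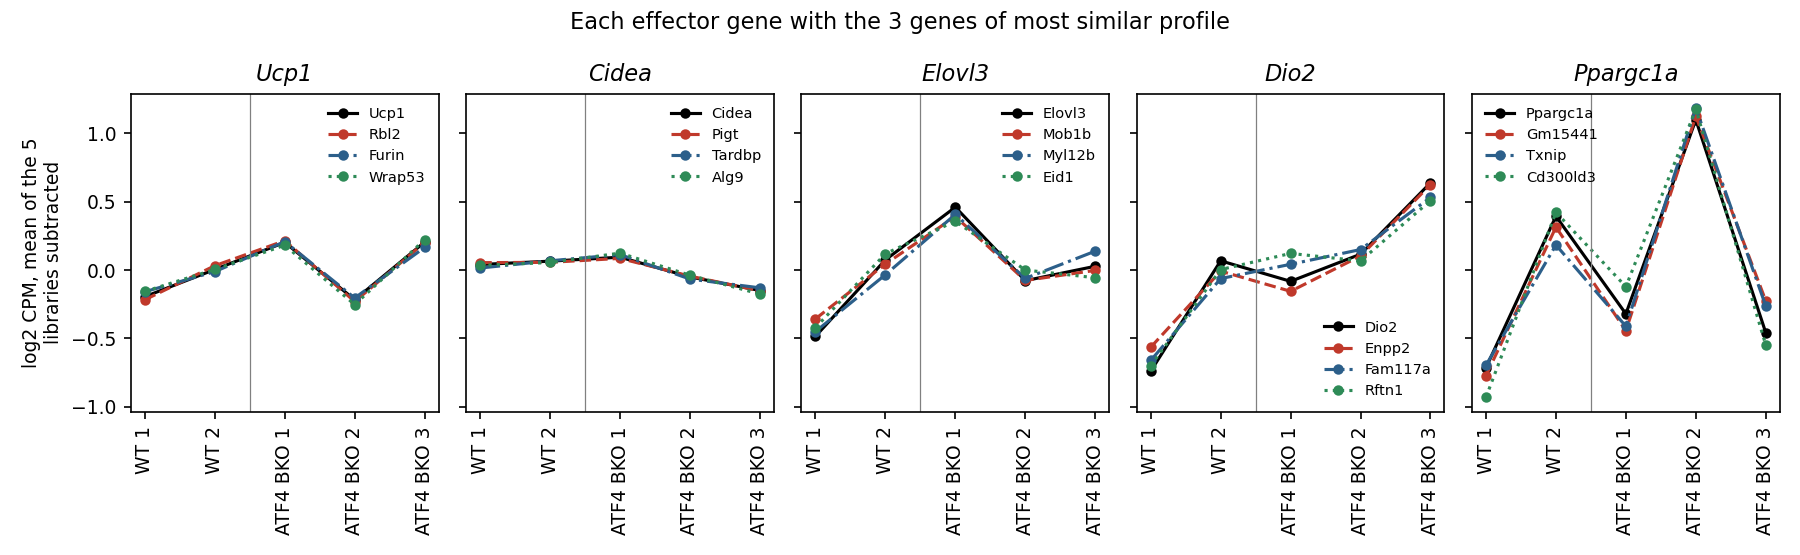
Log2 CPM with the mean of the 5 libraries subtracted (vertical axis, shared) in each library (horizontal axis, WT left of the gray line) for each of the 5 genes in black and its 3 nearest genes in color. *Cidea* is nearly flat, with a range of 0.24, and *Ppargc1a* peaks in ATF4 BKO replicate 2, with a range of 1.81.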

How the data were processed

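Poly(A) RNA of BAT was sequenced with stranded TruSeq libraries, 1 per mouse, in 3 ATF4 BKO and 2 WT mice. The authors quantified transcripts with Kallisto 0.45.0 (build mm10 per the labels), and the strand setting and annotation are not given in the sources used here. The deposited values are an estimated count and a TPM per transcript, and the authors' tool corrects TPM for transcript length and library size. Of 141450 transcripts per table, 138191 matched GENCODE M21 by identifier (3259 did not, with 1.16 to 1.29% of counts) and were summed over 52022 genes.

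Estimated counts were rounded and tested with edgeR 4.0.16 (quasi-likelihood, TMM scaling, at least 10 counts in at least 2 libraries, Benjamini-Hochberg adjustment over all 16450 genes or 44452 transcripts), in R 4.3.3. The fit had 3 residual degrees of freedom and a common dispersion of 0.0758. DESeq2 1.42.0, the study's tool, limma 3.58.1, other scalings and filters, blocks and leaving out each library were alternatives. Positions are 1-based in GRCm38. Promoters came from RefSeq, and words of 31 bases from GENCODE transcripts. The 5 genes and all lists were chosen with earlier results of these data known.

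Named genes were the 5 members, *Atf4*, paralogs averaging at least 1 TPM, up to 4 genes per list by lowest p at that level, and the 3 most similar profiles per member. Of 183 list symbols 182 matched. No 2 libraries agreed within sampling noise. The labels number the samples and tie none to a litter or day, so p-values measure the spread between these libraries.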

Additional observations from a re-analysis of the deposited data

How the results depend on the processing

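No member passed an adjusted p of 0.05 under any of the 15 other settings. *Dio2* and *Elovl3* stayed above 0 and *Cidea* below 0 in all 15. By limma on log2 TPM with pseudocounts of 1 and 0.1, the all-gene median was -0.12 and -0.17, *Ucp1* was -0.022 in both and *Ppargc1a* -0.13 and -0.15. Leaving out each library gave 0.089 to 0.31 for *Ucp1*, 0.20 to 0.98 for *Dio2*, -0.15 to -0.027 for *Cidea*, 0.098 to 0.63 for *Elovl3* and -0.31 to 0.98 for *Ppargc1a*. It gave -0.062 (without WT replicate 1) to 1.14 for Ppargc1a-203 and -1.59 (without ATF4 BKO replicate 2) to 0.62 for Ppargc1a-201. Values by library for the reversed cases were -0.31 and -0.10 for *Ppargc1a*, -0.055 and -0.062 for Ppargc1a-203, and -1.59 and -0.30 for Ppargc1a-201, without ATF4 BKO replicate 2 and WT replicate 1. Within the first name prefix, a fit added after seeing the data, *Cidea* was 0.019. With a replicate block on the sample numbers the values were 0.088 for *Ucp1*, 0.35 for *Dio2*, -0.031 for *Cidea*, 0.40 for *Elovl3* and 0.55 for *Ppargc1a*. No member's call changed, but that fit had 1 residual degree of freedom and called 0 genes, so this decides nothing. Same-numbered libraries deviated from their group means with correlations of 0.047 and 0.20 over 2 pairs. The deviations of the 2 WT libraries mirror each other, so these correlations cannot decide whether same-numbered libraries share a litter or day. Genes called numbered 1 by edgeR, 121 by DESeq2 (100 lower), 8 with no filter beyond 1 count, 0 and 2 by limma with pseudocounts of 1 and 0.1, 0 with either block (711 genes with an unadjusted p under 0.05 in the replicate block and 876 in the prefix block), and 0 to 23 with each library left out, 23 without WT replicate 1. The paralog median ran from -0.012 to 0.26 with each library left out, and the adrenergic median from 0.076 to 0.13. With library totals alone, where the all-gene median was -0.099, the medians were -0.035 for adrenergic genes, -0.13 for transcription regulators and -0.052 for other thermogenic markers. The causes were not tested. With 3 libraries against 2, these counts of samples limit all comparisons.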
